A study of Mus musculus with 18 samples.

Results

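The genes examined here are 9 targets of p53, the tumor suppressor encoded by Trp53 in the mouse, namely Cdkn1a (ENSMUSG00000023067), Mdm2 (ENSMUSG00000020184), Ccng1 (ENSMUSG00000020326), Plk2 (ENSMUSG00000021701), Eda2r (ENSMUSG00000034457), Fas (ENSMUSG00000024778), Bbc3 (ENSMUSG00000002083), Phlda3 (ENSMUSG00000041801) and Trp53inp1 (ENSMUSG00000028211). They were chosen by name, as genes known to be transcribed by p53, with earlier results of these data known. Each is listed once among the 57180 genes of the count table, and all 9 passed the filter on low counts that left 14263 genes. Counts came from RNA-seq of L929 cells, an established line of mouse fibroblasts, in 6 groups of 3 independent cultures. The Mock group received DMSO, the AOA group received 0.5 mM aminooxyacetic acid, which inhibits aminotransferases and lowers cellular aspartate, and the AOA+Asp group received 0.5 mM AOA together with 20 mM aspartate. The HT-DNA group was transfected with 0.5 μg/ml herring testis DNA for 6 h, which activates the DNA sensor cGAS. The HT-DNA+AOA group received AOA 1 h before the same HT-DNA, and the HT-DNA+AOA+Asp group received AOA, 20 mM aspartate and HT-DNA. AOA pretreatment is listed as 1 h in every group given AOA, followed by 6 h of HT-DNA only in those also transfected. Whether total AOA exposure lasted equally long without HT-DNA is not listed. Its duration and the DNA can therefore not be told apart where AOA groups with and without HT-DNA are compared. No group received aspartate alone, and the sources used here do not say whether Mock cells were exposed to transfection reagent, so the added DNA and the act of transfection cannot be told apart. The comparisons ask how lowering aspartate, returning it, and adding DNA each relate to the mRNA of genes that p53 controls.

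p53 is a transcription factor whose protein is kept scarce in unstressed cells by Mdm2, a ubiquitin ligase that marks it for degradation and is itself a p53 target, so that the pair form a negative feedback loop. DNA damage, ribosome stress and shortage of nucleotides are among the conditions known to stabilize p53. Its targets then arrest the cell cycle, limit survival signaling or prepare the cell for apoptosis, and several of them are also switched on by other stress pathways that do not need p53. Messenger RNA counts do not show the amount or the activity of the p53 protein.

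p53 binds DNA as a tetramer at a pair of 10-base units, each called a p53 decamer here, that may be separated by up to 13 bases. RefSeq promoters (GRCm38.p6, 250 bases before to 50 bases after an annotated start) were matched by symbol for 8 of the 9 genes, 11 promoters in all, and Trp53inp1 had no entry. An exact p53 decamer, searched by name and read the same on both strands, was present in the promoters of 3 of the 8 genes, which are printed here to show where the match lies. The same match was found in at least 1 promoter of 9.55% of the 27025 genes with promoters of this length. A pair of decamers with at most 1 mismatch each was present in 2 of the 8 genes and in 3.09% of the 27025 genes. Capitals mark the decamers, the sequence runs 5′ to 3′ on the strand of the gene, and the remaining promoters hold no exact decamer within these 300 bases, which says nothing about sites elsewhere in the gene.
Cdkn1a: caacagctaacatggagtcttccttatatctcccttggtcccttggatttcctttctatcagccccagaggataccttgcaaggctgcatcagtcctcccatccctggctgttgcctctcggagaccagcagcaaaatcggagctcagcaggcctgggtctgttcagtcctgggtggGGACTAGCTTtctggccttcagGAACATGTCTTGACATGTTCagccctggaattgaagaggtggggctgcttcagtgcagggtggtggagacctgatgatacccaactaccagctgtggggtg
Mdm2: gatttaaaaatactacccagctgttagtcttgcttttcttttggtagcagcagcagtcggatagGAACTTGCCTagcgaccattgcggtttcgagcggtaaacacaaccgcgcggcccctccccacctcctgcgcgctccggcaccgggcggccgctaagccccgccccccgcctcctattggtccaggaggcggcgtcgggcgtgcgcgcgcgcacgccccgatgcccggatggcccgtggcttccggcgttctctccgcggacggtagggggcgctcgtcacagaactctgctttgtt
Ccng1: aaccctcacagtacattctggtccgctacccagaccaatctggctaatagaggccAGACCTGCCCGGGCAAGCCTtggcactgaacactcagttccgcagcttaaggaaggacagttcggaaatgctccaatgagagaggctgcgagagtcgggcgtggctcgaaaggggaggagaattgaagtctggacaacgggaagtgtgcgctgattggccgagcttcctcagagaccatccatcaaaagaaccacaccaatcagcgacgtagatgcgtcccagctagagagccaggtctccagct
The Cdkn1a window lies at chr17:29090729-29091028 on the plus strand at the more upstream of its 2 annotated starts, with exact decamers beginning 73 and 51 bases before that start. The decamer at 51 bases is followed without a gap by a further one with 1 mismatch, which begins 41 bases before the start. The Mdm2 window lies at chr10:117710709-117711008 on the minus strand, with 1 exact decamer beginning 186 bases before the start and no pair. The Ccng1 window lies at chr11:40755237-40755536 on the minus strand, with an exact decamer beginning 185 bases before the start and directly preceded by one with 1 mismatch. These matches are a description of letters, since no binding was measured in these samples.

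The 18 libraries held 17901580 to 24057322 counts each, and values below are CPM (counts scaled to TMM-adjusted library size by edgeR). Cxcl10, a chemokine induced by cGAS-STING signaling and used as the check of HT-DNA, was at 0 to 0.18 CPM in Mock, 30.6 to 31.2 CPM in HT-DNA and 234 to 286 CPM in HT-DNA+AOA. Of 10 fibroblast markers, 8 passed the filter, while Thy1 and Lum had at most 4 counts. The summed level of the fibroblast markers was 5324 to 5779 CPM in Mock, 5620 to 6193 in AOA, 5540 to 5814 in AOA+Asp, 6363 to 6922 in HT-DNA, 4789 to 6448 in HT-DNA+AOA and 5547 to 5588 in HT-DNA+AOA+Asp, and its part in the results was not tested. Most of this sum came from Vim (2300 to 2970 CPM) and S100a4 (2000 to 3710 CPM), and with AOA relative to Mock 3 of the 8 markers were higher and 3 lower. Of 9 markers of other cells, Ptprc, Adgre1 and Myod1 had no counts, and Cd68 (110 to 155 CPM) and Des (13.1 to 20.5 CPM) were the only ones that passed the filter. The 3 HT-DNA+AOA libraries differed from each other more than those of any other group, with a chi-square per degree of freedom of 60.8 between replicates 1 and 3, 23.6 between 1 and 2 and 16.6 between 2 and 3, against 2.69 to 12.1 in the other groups. The labels give no batch. Long transcripts relative to short ones (upper against lower quartile of the genes) stood at 0.12, -0.35 and -0.69 on the log2 scale in HT-DNA+AOA replicates 1, 2 and 3, and GC-rich relative to GC-poor genes at -0.30, -0.01 and 0.41. HT-DNA libraries were at -0.47 to -0.17 for length and 0.28 to 0.50 for GC content, AOA+Asp libraries at 0.18 to 0.36 and -0.46 to -0.15, and AOA replicate 3 at -0.19 for length, and the part of RNA quality or library preparation in these values was not tested. Values after a loess correction of each library for transcript length and GC content, added after these libraries were seen, are therefore given wherever they end a call or move it by more than 1.5 times.

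**Figure D1:**
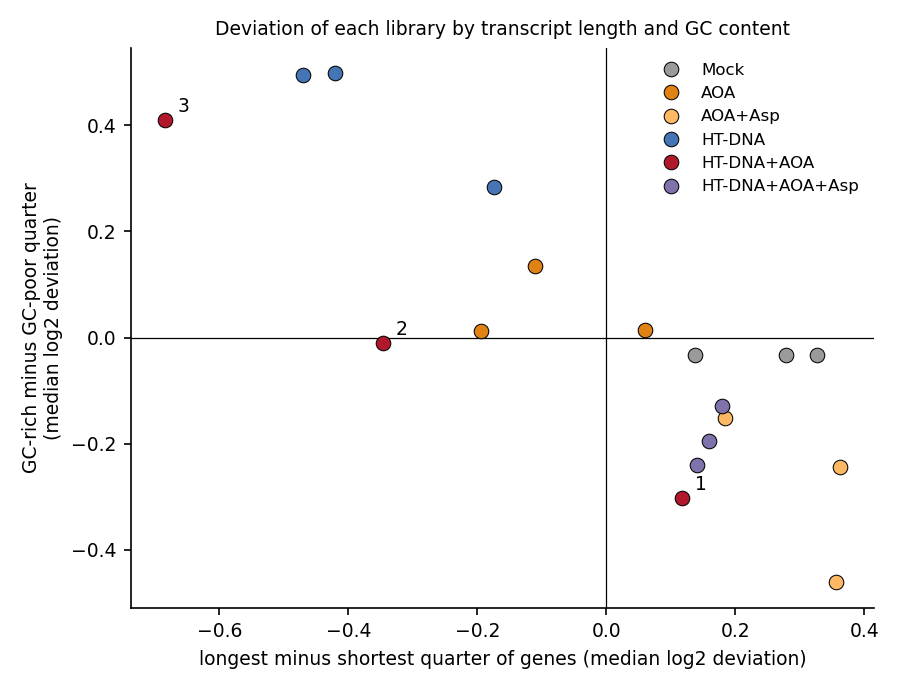
Deviation of each library by transcript length (upper minus lower quartile of genes, log2) and by GC content (upper minus lower quartile, log2), 1 point per library, colored by group, with the HT-DNA+AOA replicates numbered. The 3 HT-DNA+AOA libraries spread from 0.12 to -0.69 for length and from -0.30 to 0.41 for GC content, the 3 HT-DNA libraries lie at -0.17 or less for length, and AOA+Asp replicate 1 is lowest for GC content at -0.46.

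Per kilobase of the longest annotated transcript (GENCODE vM21), Cdkn1a was the most abundant of the 9 mRNAs in Mock cells at 36.4 ± 1.9 CPM per kb (SD, n = 3), followed by Phlda3 at 28, Mdm2 at 24.7 and Ccng1 at 23.4. Plk2 stood at 6.32, Bbc3 at 1.94, Eda2r at 1.87, Trp53inp1 at 1.2 and Fas at 0.252 CPM per kb. The level of Fas rested on 5 to 44 counts per library and that of Trp53inp1 on 28 to 152, so their precision is lower than that of Cdkn1a, which had 942 to 1771 counts. Between the highest and the lowest group mean, the level of Plk2 differed 6.43-fold, that of Fas 4.82-fold, that of Eda2r 3.04-fold and that of Phlda3 3.01-fold. The same range was 2.73-fold for Trp53inp1, 2.63-fold for Bbc3, 1.79-fold for Cdkn1a, and 1.37-fold for both Mdm2 and Ccng1. HT-DNA+AOA held the highest mean of 5 of the 9 genes (Cdkn1a, Eda2r, Plk2, Fas and Bbc3), and Mock that of 3 (Mdm2, Ccng1 and Trp53inp1). The highest group overlapped the next one for Cdkn1a, Fas, Bbc3, Mdm2 and Ccng1. How often each group is highest over all genes was not counted, so these numbers have no background to be read against. As RNA was taken from whole cultures, a change in the share of cells expressing a gene and a change in RNA per cell cannot be told apart.

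**Figure D2:**
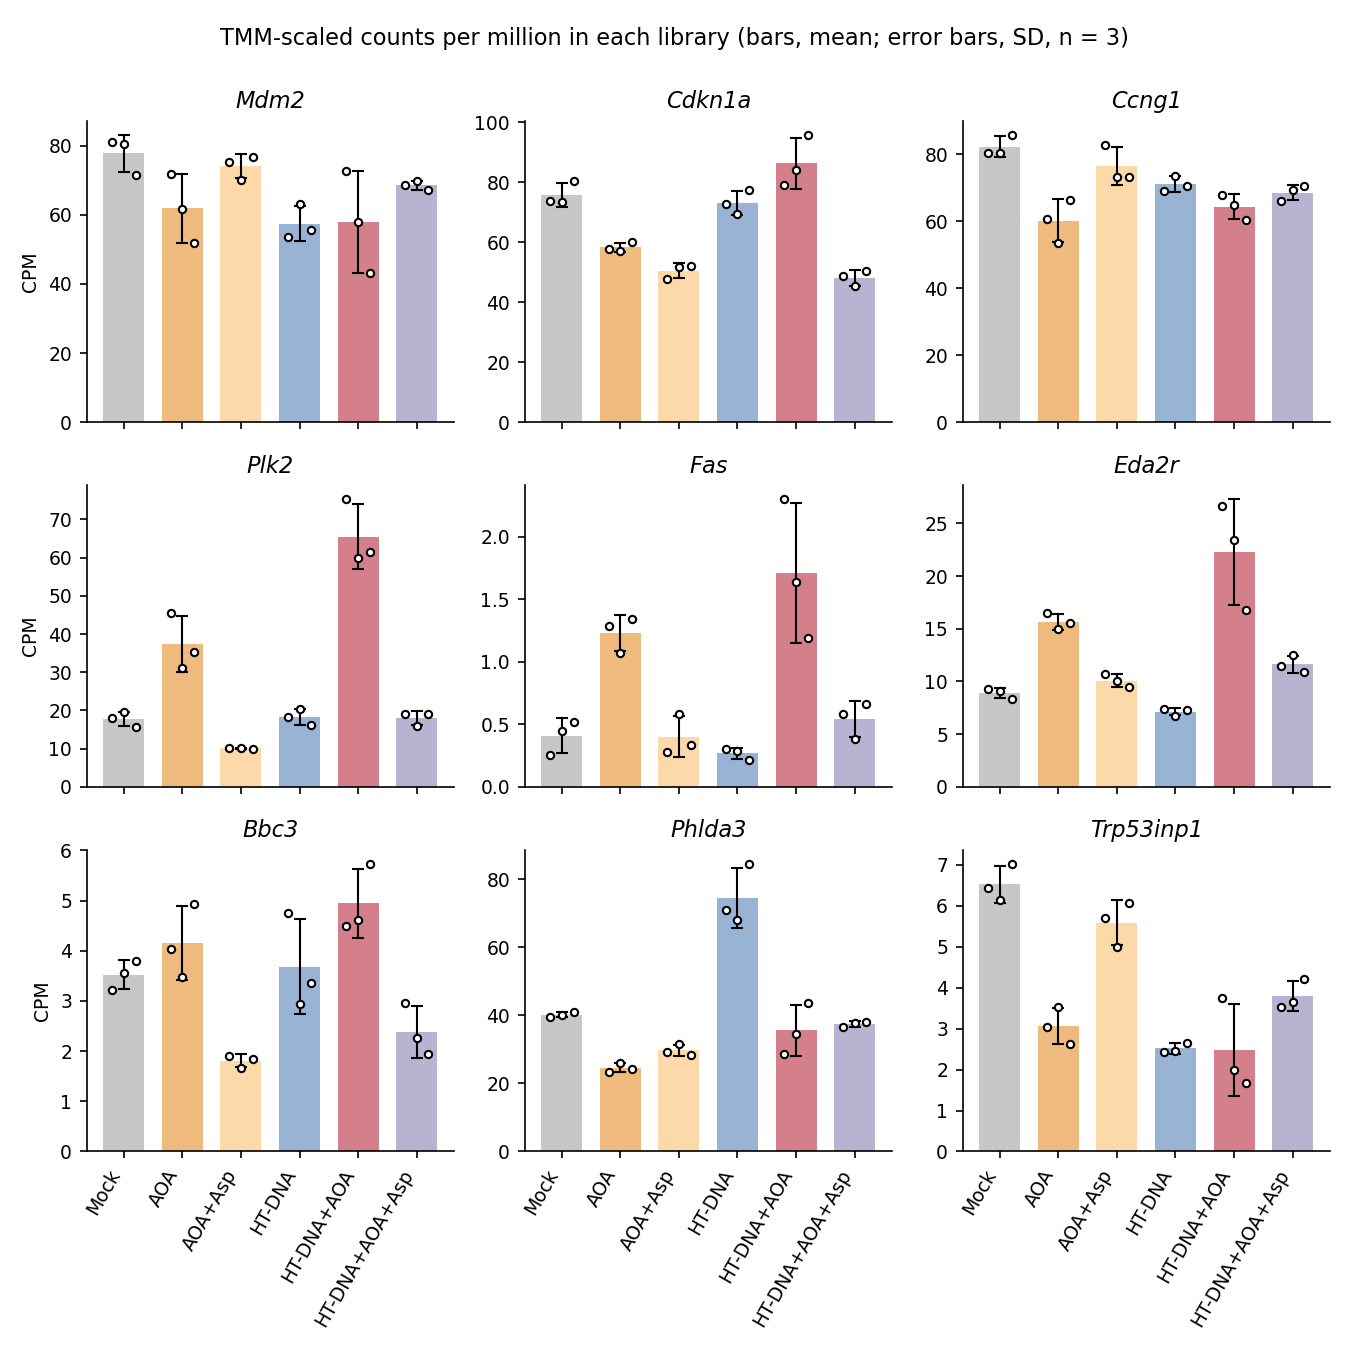
Level of each of the 9 p53 target genes in CPM (linear axes from 0, scaled per gene), with a bar for the mean of 3 cultures, the SD as error bar and a point for each library, in the 6 groups. Plk2, Eda2r and Fas are highest in HT-DNA+AOA, Phlda3 is highest in HT-DNA at a mean of 74.5 CPM, and the group means of Mdm2 and Ccng1 vary least. Single Mdm2 libraries of HT-DNA+AOA spread from 43.1 to 72.8 CPM.

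Cdkn1a encodes p21, the inhibitor of cyclin-dependent kinases that carries out the p53-dependent arrest of the cell cycle. Without HT-DNA, Cdkn1a was at 73.7, 73.3 and 80.3 CPM in Mock, 57.7, 57.1 and 60 CPM in AOA, and 47.7, 51.7 and 52.1 CPM in AOA+Asp. With HT-DNA, it was at 72.9, 69.3 and 77.4 CPM in HT-DNA, 79, 84 and 95.8 CPM in HT-DNA+AOA, and 48.7, 45.3 and 50.3 CPM in HT-DNA+AOA+Asp. The order of the means was HT-DNA+AOA, Mock, HT-DNA, AOA, AOA+Asp and HT-DNA+AOA+Asp, in which the first 3 groups overlapped with their neighbours, as did the last 2, and AOA stood apart from both sides. Both groups given aspartate were therefore the lowest of the 6. Of the 31-base sequences of Cdkn1a, 9.19% also occur in other genes, read on either strand, and in 16 libraries its deposited value was not a whole number. In GENCODE vM21, a gene named AC167363.2 overlaps its exons on the other strand. The noncoding RNA Dino had 4 to 21 counts, at most 2.05% of the Cdkn1a count, and whether it is the same gene was not checked. The sources used here do not say whether reads were counted by strand.

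Mdm2, the ligase that targets p53, and Ccng1, a cyclin that recruits the phosphatase PP2A to Mdm2, varied least. Mdm2 was at 81.1, 80.6 and 71.6 CPM in Mock, 71.9, 61.7 and 51.9 CPM in AOA, and 75.2, 70.1 and 76.7 CPM in AOA+Asp. With HT-DNA, Mdm2 was at 53.6, 63.1 and 55.6 CPM, in HT-DNA+AOA at 72.8, 57.8 and 43.1 CPM, and in HT-DNA+AOA+Asp at 68.7, 69.8 and 67.1 CPM. The HT-DNA+AOA libraries spread from 43.1 to 72.8 CPM, wider than any other group, and only AOA+Asp and HT-DNA+AOA+Asp did not overlap among neighbours in the order of means. Ccng1 was at 80.5, 80.3 and 85.8 CPM in Mock, 60.7, 53.6 and 66.4 CPM in AOA, and 82.9, 73.3 and 73.2 CPM in AOA+Asp. With HT-DNA, Ccng1 was at 69, 73.6 and 70.5 CPM, in HT-DNA+AOA at 67.8, 65 and 60.3 CPM, and in HT-DNA+AOA+Asp at 66, 69.3 and 70.4 CPM. Every neighbouring pair of groups overlapped for Ccng1, although Mock lay wholly above 4 of the other 5 groups.

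Plk2, a polo-like kinase induced early after stress, showed the widest range. Its level was 17.9, 19.5 and 15.8 CPM in Mock, 45.5, 31.2 and 35.4 CPM in AOA, and 10.1, 10.2 and 9.9 CPM in AOA+Asp. With HT-DNA, Plk2 was at 18.3, 20.4 and 16.1 CPM, in HT-DNA+AOA at 75.2, 59.9 and 61.4 CPM, and in HT-DNA+AOA+Asp at 19, 16 and 19.1 CPM. HT-DNA+AOA and AOA stood above all other libraries without overlap, AOA+Asp stood below all others, and the 3 remaining groups overlapped.

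Eda2r and Fas encode receptors of the TNF receptor family, the first a receptor for the ectodysplasin EDA-A2 and the second the death receptor bound by Fas ligand. Eda2r was at 9.27, 9.06 and 8.35 CPM in Mock, 16.5, 15 and 15.5 CPM in AOA, and 10.7, 10 and 9.48 CPM in AOA+Asp. With HT-DNA, Eda2r was at 7.38, 6.73 and 7.29 CPM, in HT-DNA+AOA at 26.6, 23.4 and 16.8 CPM, and in HT-DNA+AOA+Asp at 11.5, 12.5 and 10.9 CPM. No neighbouring groups overlapped for Eda2r, in the order HT-DNA+AOA, AOA, HT-DNA+AOA+Asp, AOA+Asp, Mock and HT-DNA. Fas was at 0.254, 0.451 and 0.522 CPM in Mock, 1.29, 1.07 and 1.34 CPM in AOA, and 0.28, 0.587 and 0.337 CPM in AOA+Asp. With HT-DNA, Fas was at 0.303, 0.284 and 0.218 CPM, in HT-DNA+AOA at 2.3, 1.64 and 1.19 CPM, and in HT-DNA+AOA+Asp at 0.58, 0.385 and 0.663 CPM. The 6 libraries with AOA but without aspartate were the 6 highest for both receptors, with no overlap with the other 12 libraries.

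Bbc3, also known as PUMA, is a BH3-only protein that promotes apoptosis at the mitochondrion. Its level was 3.22, 3.56 and 3.8 CPM in Mock, 4.04, 3.48 and 4.94 CPM in AOA, and 1.91, 1.66 and 1.85 CPM in AOA+Asp. With HT-DNA, Bbc3 was at 4.75, 2.94 and 3.36 CPM, in HT-DNA+AOA at 4.49, 4.62 and 5.73 CPM, and in HT-DNA+AOA+Asp at 2.95, 2.26 and 1.94 CPM. HT-DNA+AOA, AOA, HT-DNA and Mock overlapped with their neighbours in this order, and AOA+Asp stood below every other library.

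Phlda3 encodes a pleckstrin-homology protein that restrains the survival kinase Akt, and Trp53inp1 a nuclear stress protein linked to autophagy and p53 activity. Phlda3 was at 39.6, 40.1 and 41 CPM in Mock, 23.5, 26 and 24.3 CPM in AOA, and 29.3, 31.5 and 28.5 CPM in AOA+Asp. With HT-DNA, Phlda3 was at 71, 68.1 and 84.5 CPM, in HT-DNA+AOA at 28.8, 34.4 and 43.6 CPM, and in HT-DNA+AOA+Asp at 36.5, 37.9 and 38.1 CPM. The HT-DNA libraries lay above all others and the AOA libraries below all others. Trp53inp1 was at 6.43, 6.13 and 7.02 CPM in Mock, 3.05, 3.52 and 2.62 CPM in AOA, and 5.69, 4.99 and 6.07 CPM in AOA+Asp. With HT-DNA, Trp53inp1 was at 2.43, 2.46 and 2.66 CPM, in HT-DNA+AOA at 3.76, 2 and 1.67 CPM, and in HT-DNA+AOA+Asp at 3.53, 3.66 and 4.21 CPM. Mock was highest for Trp53inp1, and AOA, HT-DNA and HT-DNA+AOA, the lowest 3 groups, overlapped.

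AOA alone moved the 9 genes in both directions. Relative to Mock, 3 of the 9 were higher (22.5% of the 14263 genes tested were higher) and 4 were lower (23.2% were lower), at an edgeR quasi-likelihood p-value below 0.05 after Benjamini-Hochberg adjustment. Both receptors and Plk2 rose, while the arrest gene Cdkn1a, the Mdm2 partner Ccng1, and Phlda3 and Trp53inp1 fell. Fas was 3-fold higher (log2 fold change 1.59, SE 0.35, adjusted p = 0.00112), Plk2 2.11-fold higher (1.08, SE 0.131, adjusted p = 2.66e-06) and Eda2r 1.76-fold higher (0.81, SE 0.127, adjusted p = 4.42e-05). Trp53inp1 was 2.11-fold lower (-1.08, SE 0.201, adjusted p = 0.000243), Phlda3 1.63-fold lower (-0.71, SE 0.113, adjusted p = 5.67e-05), Ccng1 1.37-fold lower (-0.45, SE 0.0782, adjusted p = 0.000127) and Cdkn1a 1.3-fold lower (-0.38, SE 0.0765, adjusted p = 0.000518). Mdm2 (-0.33, adjusted p = 0.0543) and Bbc3 (0.23, adjusted p = 0.351) did not pass. Mdm2 passed in 8 of 14 alternatives, among them without AOA replicate 1 (-0.45, adjusted p = 0.0195). The median of the 9 log2 fold changes was -0.33 beside 0.015 over all genes tested. Scaling by library totals in place of TMM lowered the median of all genes by 0.13, turned 3204 higher calls of 6519 over all genes into 2125 of 6628, and left the direction of the 7 calls as it was.

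With aspartate added to AOA, Plk2, both receptors and Bbc3 were lower than with AOA alone, and Trp53inp1 and Ccng1 were higher. In AOA+Asp relative to AOA, 2 of the 9 genes were higher (23.4% of all genes tested) and 5 were lower (22.8%). Plk2 was 3.71-fold lower (-1.89, SE 0.138, adjusted p = 5.91e-09), Fas 3.06-fold lower (-1.61, SE 0.352, adjusted p = 0.00106), Bbc3 2.27-fold lower (-1.19, SE 0.208, adjusted p = 0.000146) and Eda2r 1.55-fold lower (-0.63, SE 0.126, adjusted p = 0.000498). Trp53inp1 was 1.81-fold higher (0.86, SE 0.203, adjusted p = 0.00203) and Ccng1 1.27-fold higher (0.35, SE 0.0783, adjusted p = 0.00144), and both were less changed after the correction for length and GC content (0.44 and 0.15). Cdkn1a, which AOA had lowered, was lower still (-0.205, SE 0.0772, adjusted p = 0.0364). The Cdkn1a call was lost without any 1 of the 6 libraries (-0.229 to -0.165, adjusted p = 0.051 to 0.139), with library totals (-0.12, adjusted p = 0.166), without the filter on low counts (adjusted p = 0.123) and after the correction (-0.029, adjusted p = 0.686). Mdm2 (0.26, adjusted p = 0.128) and Phlda3 (0.27, adjusted p = 0.0605) did not pass. Phlda3 passed in 5 of 14 alternatives and stood at 0.485 after the correction (adjusted p = 1.06e-06). Over all genes, 3344 of 6600 calls were higher, and 4086 of 6570 with library totals. This comparison shares its AOA libraries with the previous one, so opposite signs in the pair are not separate evidence.

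AOA+Asp cells were compared with Mock to see what remained of the AOA difference. Of the 9 genes, 0 were higher by edgeR's test (2.52% of all genes tested), also 0 at an unadjusted p below 0.05 and 0 by DESeq2, and 4 were lower (3.95%). Bbc3 was 1.94-fold lower (-0.96, SE 0.208, adjusted p = 0.00853), Plk2 1.76-fold lower (-0.82, SE 0.141, adjusted p = 0.00138), Cdkn1a 1.5-fold lower (-0.59, SE 0.0767, adjusted p = 8.25e-05) and Phlda3 1.35-fold lower (-0.44, SE 0.112, adjusted p = 0.0238). Plk2 therefore stood below Mock with aspartate and above it without. Fas (-0.026, adjusted p = 0.984), Mdm2 (-0.072, adjusted p = 0.823), Ccng1 (-0.104, adjusted p = 0.478), Eda2r (0.18, adjusted p = 0.468) and Trp53inp1 (-0.22, adjusted p = 0.551) did not pass, and the 95% interval for Fas ran from -0.90 to 0.85. The Phlda3 call was lost without any Mock library and without AOA+Asp replicates 1 and 3 (-0.447 to -0.404, adjusted p = 0.0721 to 0.107), and the correction gave -0.26 (adjusted p = 0.00495). After the correction Ccng1 was called at -0.245 (adjusted p = 0.00336). Since aspartate was not given alone, its own action and the reversal of AOA cannot be told apart.

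**Figure D3:**
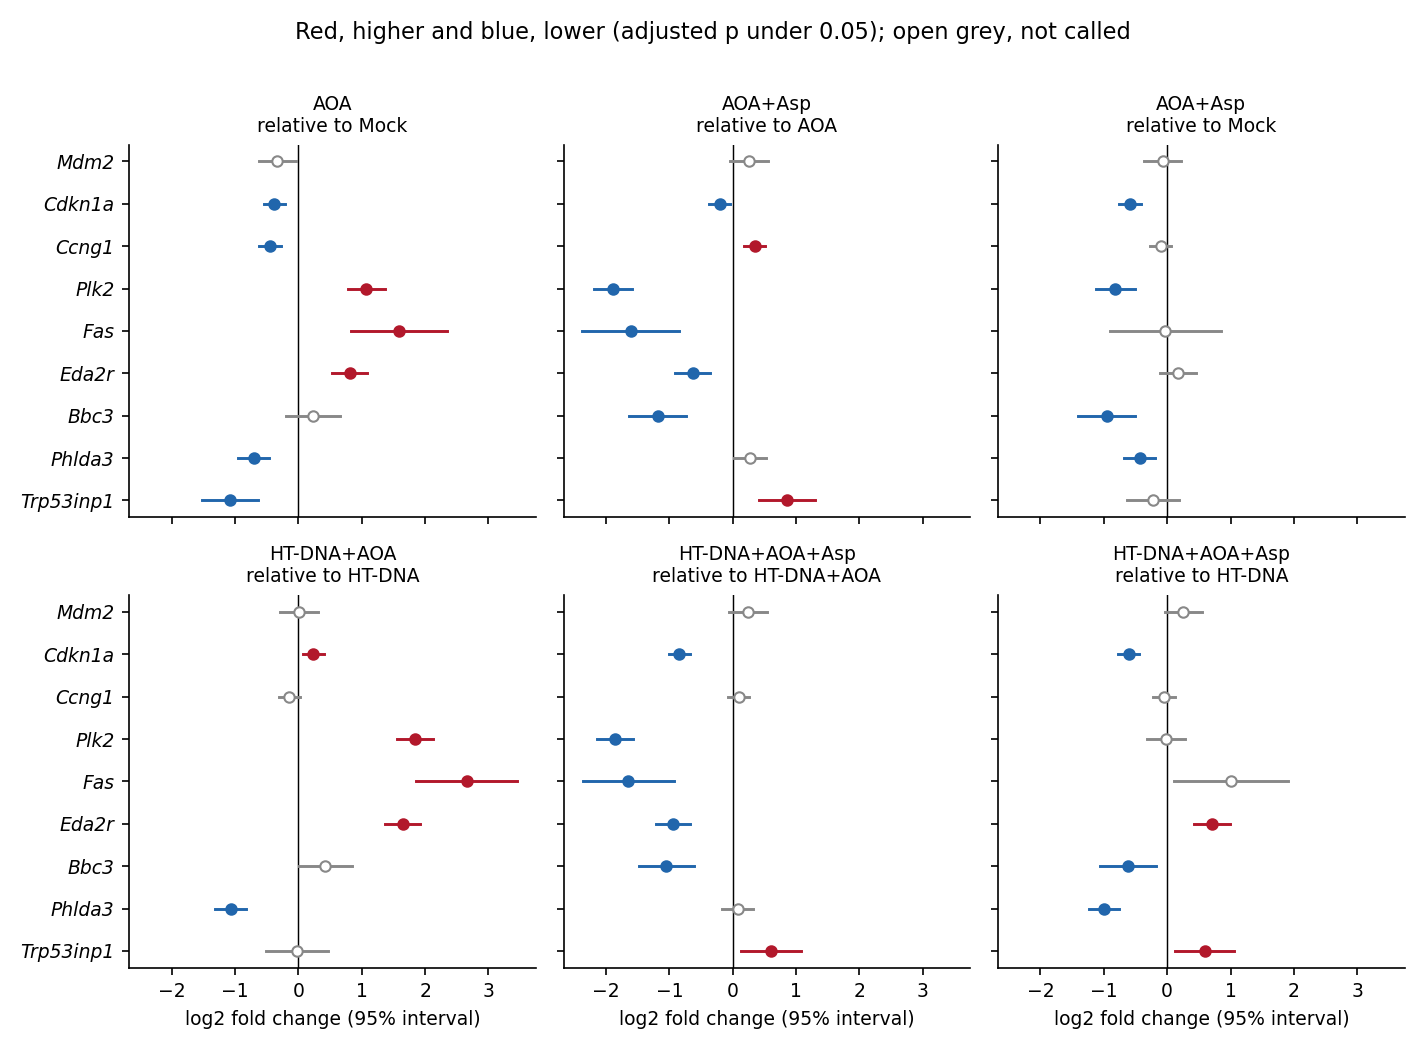
Log2 fold change of the 9 genes in 6 comparisons between groups, with an approximate 95% interval as bars and a line at 0. Plk2 lies between 1.08 and 1.84 in both AOA comparisons and at -1.89 and -1.86 where aspartate was added to AOA.

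HT-DNA alone raised Phlda3 and lowered Trp53inp1, Mdm2 and Ccng1. Relative to Mock, 1 of the 9 genes was higher (24.2% of all genes tested) and 3 were lower (24%). Phlda3 was 1.85-fold higher (0.89, SE 0.109, adjusted p = 8.05e-06), and 0.4 after the correction for length and GC content (adjusted p = 8.32e-06). Trp53inp1 was 2.59-fold lower (-1.37, SE 0.204, adjusted p = 5.07e-05), Mdm2 1.36-fold lower (-0.44, SE 0.136, adjusted p = 0.013) and Ccng1 1.16-fold lower (-0.21, SE 0.0776, adjusted p = 0.0319). Cdkn1a (-0.05, adjusted p = 0.61), Plk2 (0.042, adjusted p = 0.815), Bbc3 (0.061, adjusted p = 0.815), Eda2r (-0.32, adjusted p = 0.058) and Fas (-0.59, adjusted p = 0.268) did not pass, and the 95% interval for Plk2 was -0.25 to 0.34. Eda2r passed in 4 of 14 alternatives, at -0.43 with library totals (adjusted p = 0.0225), and stood at -0.025 after the correction. The count fell to 2 of 9 without HT-DNA replicate 1, where Mdm2 stood at -0.39 (adjusted p = 0.0563). The Ccng1 call was lost without any Mock library or HT-DNA replicates 1 and 3 (-0.227 to -0.178, adjusted p = 0.0527 to 0.111), without the filter (adjusted p = 0.119) and after the correction (-0.043, adjusted p = 0.526), under which Cdkn1a was called at -0.32 (adjusted p = 4.59e-05). The library-total scaling lowered the median of all genes by 0.11 and changed 3456 higher calls of 6881 to 2408 of 6845, and it put Ccng1 at -0.32.

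AOA in DNA-transfected cells raised 4 of the 9 genes relative to HT-DNA (22.8% of all genes tested were higher) and lowered 1 (22.7% were lower). Both receptors, Plk2 and Cdkn1a rose, and Phlda3 fell. Fas was 6.32-fold higher (2.66, SE 0.367, adjusted p = 8.15e-06), Plk2 3.59-fold higher (1.84, SE 0.131, adjusted p = 1.99e-09) and Eda2r 3.13-fold higher (1.64, SE 0.129, adjusted p = 7.28e-09). Cdkn1a was 1.18-fold higher (0.24, SE 0.076, adjusted p = 0.0157), and Phlda3 2.1-fold lower (-1.07, SE 0.111, adjusted p = 2.44e-07), with -0.68 after the correction for length and GC content. Bbc3 (0.43, adjusted p = 0.0797), Ccng1 (-0.14, adjusted p = 0.151), Mdm2 (0.014, adjusted p = 0.944) and Trp53inp1 (-0.015, adjusted p = 0.964) did not pass. The Cdkn1a call was lost without HT-DNA replicate 2 (0.196, adjusted p = 0.0813), without HT-DNA+AOA replicate 3 (0.155, adjusted p = 0.0759), without the filter (adjusted p = 0.0746) and with only these 2 groups fitted (adjusted p = 0.109), and it was 0.39 after the correction (adjusted p = 1.92e-06). Bbc3 passed without HT-DNA replicate 1 (0.64, adjusted p = 0.0149) and after the correction (0.85), under which Ccng1 was called at -0.32 (adjusted p = 3.24e-05).

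In DNA-transfected cells given AOA, Plk2, both receptors, Bbc3 and Cdkn1a were lower when aspartate was added. In HT-DNA+AOA+Asp relative to HT-DNA+AOA, 1 of the 9 genes was higher (23.7% of all genes tested) and 5 were lower (23.9%). Plk2 was 3.63-fold lower (-1.86, SE 0.131, adjusted p = 2.73e-09), Fas 3.14-fold lower (-1.65, SE 0.33, adjusted p = 0.000472), Bbc3 2.07-fold lower (-1.05, SE 0.201, adjusted p = 0.000323), Eda2r 1.92-fold lower (-0.94, SE 0.124, adjusted p = 6.36e-06) and Cdkn1a 1.79-fold lower (-0.84, SE 0.0772, adjusted p = 7.51e-08). Trp53inp1 was 1.52-fold higher (0.61, SE 0.216, adjusted p = 0.0271), with groups that overlapped through HT-DNA+AOA replicate 1. Mdm2 (0.24, adjusted p = 0.153), Ccng1 (0.091, adjusted p = 0.355) and Phlda3 (0.076, adjusted p = 0.6) did not pass. The Trp53inp1 value was 1.04 (adjusted p = 7.95e-05) without HT-DNA+AOA replicate 1, and the call was lost without HT-DNA+AOA replicate 2 (0.47, adjusted p = 0.127) or 3 (0.401, adjusted p = 0.136), without HT-DNA+AOA+Asp replicate 3 (0.53, adjusted p = 0.0931), with only these 2 groups fitted (adjusted p = 0.14) and after the correction (0.38, adjusted p = 0.0829). Mdm2 passed without HT-DNA+AOA replicate 1 (0.44, adjusted p = 0.00296), and Phlda3 without replicate 3 (0.25, adjusted p = 0.0413) and after the correction (0.3). Over all genes, 3386 of 6799 calls were higher, and 4193 of 6741 with library totals. The HT-DNA+AOA libraries are those of the previous comparison, so opposite signs in the pair are not separate evidence here either.

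Against HT-DNA alone, HT-DNA+AOA+Asp had 2 of the 9 genes higher (23.2% of all genes tested) and 3 lower (23.5%). Phlda3 was 1.99-fold lower (-0.99, SE 0.11, adjusted p = 5.73e-06), Bbc3 1.54-fold lower (-0.62, SE 0.203, adjusted p = 0.0177) with groups that overlapped, and Cdkn1a 1.52-fold lower (-0.61, SE 0.077, adjusted p = 1.91e-05). Eda2r was 1.63-fold higher (0.705, SE 0.133, adjusted p = 0.000485) and Trp53inp1 1.51-fold higher (0.59, SE 0.212, adjusted p = 0.0291). Plk2 (-0.017, adjusted p = 0.929), Ccng1 (-0.051, adjusted p = 0.618), Mdm2 (0.26, adjusted p = 0.132) and Fas (1.01, adjusted p = 0.0537) did not pass, and the 95% interval for Plk2 ran from -0.31 to 0.28. Without HT-DNA replicate 1 or HT-DNA+AOA+Asp replicate 3 the count was 3 of 9. The Trp53inp1 call was lost without any HT-DNA library or HT-DNA+AOA+Asp replicates 2 and 3 (0.511 to 0.635, adjusted p = 0.0525 to 0.102), and the Bbc3 call without HT-DNA replicate 1 (-0.404, adjusted p = 0.132) and HT-DNA+AOA+Asp replicates 2 (-0.587, adjusted p = 0.057) and 3 (-0.494, adjusted p = 0.087). Fas passed without HT-DNA+AOA+Asp replicate 2 (1.2, adjusted p = 0.0412). After the correction Cdkn1a stood at -0.303, Phlda3 at -0.38 and Eda2r at 0.35, all still called, Trp53inp1 at 0.19 (adjusted p = 0.426) and Bbc3 at -0.053 (adjusted p = 0.863) were not called, and Ccng1 was called at -0.31.

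Whether the AOA difference changed with HT-DNA was tested with the interaction term, the AOA difference with HT-DNA minus that without it. Of the 9 genes, 4 had a positive term (7.23% of all genes tested) and 0 a negative one (8.26%), by edgeR's test, with 1 negative term (Phlda3) at an unadjusted p below 0.05 and none called by DESeq2. Cdkn1a turned from lower with AOA alone to higher with AOA in transfected cells, with a term of 0.62 (SE 0.108, adjusted p = 0.00145). The rises of Eda2r and Plk2 were larger with HT-DNA, by 0.83 (SE 0.181, adjusted p = 0.00632) and 0.77 (SE 0.184, adjusted p = 0.0108). The term for Trp53inp1 was 1.07 (SE 0.302, adjusted p = 0.0245), since AOA lowered it without HT-DNA (-1.08) and the difference with HT-DNA was -0.015. Fas (1.07, SE 0.525, adjusted p = 0.164), Mdm2 (0.345, adjusted p = 0.224), Ccng1 (0.31, adjusted p = 0.0651), Phlda3 (-0.36, adjusted p = 0.12) and Bbc3 (0.196, adjusted p = 0.645) did not pass. The Trp53inp1 term was lost without Mock replicate 3 (1.01, adjusted p = 0.0532), AOA replicate 3 (0.97, adjusted p = 0.0586), HT-DNA replicate 1 (1.04, adjusted p = 0.0567) or HT-DNA+AOA replicate 1 (0.63, adjusted p = 0.112), with only the 4 groups fitted (adjusted p = 0.072) and after the correction (0.65, adjusted p = 0.0732), and Eda2r was 0.51 after the correction (adjusted p = 0.00814). Without HT-DNA+AOA replicate 3, 7 of the 9 terms were called, with Mdm2 at 0.51, Ccng1 at 0.35 and Phlda3 at -0.53 added. Over all genes 1031 of 2209 terms were positive, 1388 of 2151 with library totals, and 2557 of 5422 without HT-DNA+AOA replicate 3.

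The matching term for aspartate, the difference that aspartate made with HT-DNA minus that without it, was called for Cdkn1a alone. By edgeR's test, 0 of the 9 terms were positive (0.266% of all genes tested) and 1 was negative (0.778%). The Cdkn1a term was -0.64 (SE 0.109, adjusted p = 0.00495). It joins a fall of -0.84 with HT-DNA and one of -0.205 without it. The call of the latter was lost in 9 of 14 alternatives, and it was -0.029 after the correction for length and GC content. Ccng1 was at -0.255 (adjusted p = 0.406) and Plk2 at 0.032 (adjusted p = 0.986), with a 95% interval of -0.38 to 0.44. The other 6 genes had adjusted p-values of 0.603 to 0.995, and 0 positive terms had an unadjusted p below 0.05 or were called by DESeq2. This term shares its 6 AOA and HT-DNA+AOA libraries with the one before it.

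**Figure D4:**
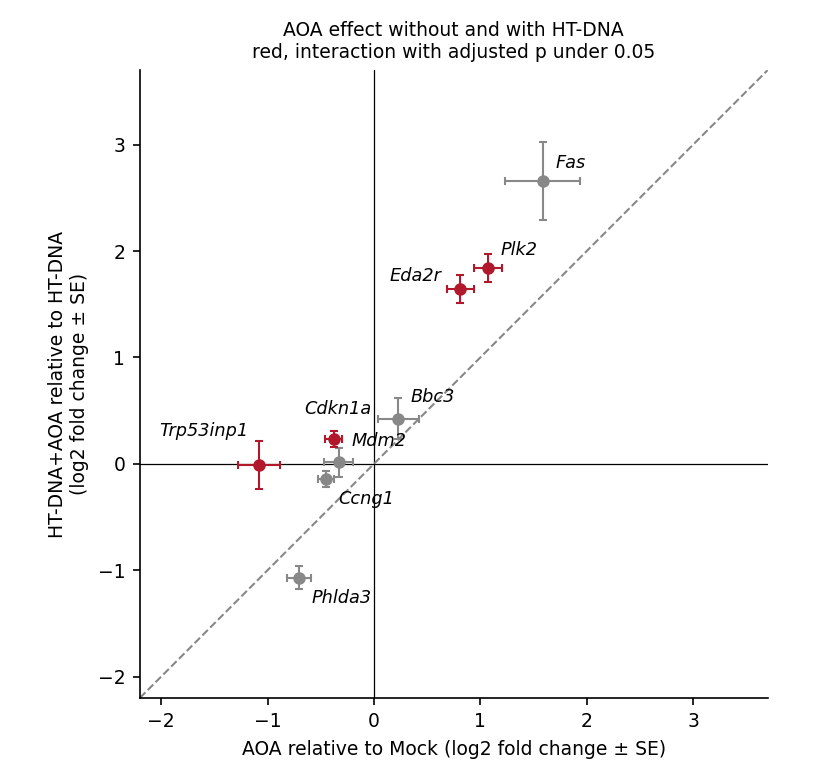
Log2 fold change of each gene for AOA relative to Mock (x axis) against HT-DNA+AOA relative to HT-DNA (y axis), with standard errors as bars and the line of equal values, and red for the 4 genes whose interaction term was called. Cdkn1a moves from -0.38 to 0.24, and Eda2r, Plk2 and Trp53inp1 also lie above the line.

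Trp53 itself varied less than most of its targets. Its mRNA was at 150 to 157 CPM in Mock, 167 to 190 in AOA, 141 to 152 in AOA+Asp, 189 to 191 in HT-DNA, 161 to 197 in HT-DNA+AOA and 146 to 158 in HT-DNA+AOA+Asp. Trp53 was higher with AOA (0.215, adjusted p = 0.0243) and with HT-DNA (0.305, adjusted p = 0.00284) relative to Mock, and lower in AOA+Asp relative to AOA (-0.28, adjusted p = 0.00511) and in HT-DNA+AOA+Asp relative to HT-DNA (-0.32, adjusted p = 0.00219). In HT-DNA+AOA+Asp relative to HT-DNA+AOA, Trp53 was not called lower by edgeR, although the libraries of these groups did not overlap. The AOA difference in Trp53 was not called with library totals (0.084, adjusted p = 0.325). Its interaction term of -0.36 (adjusted p = 0.0299) was lost with library totals (-0.27, adjusted p = 0.0628) and without HT-DNA+AOA replicate 1 (-0.31, adjusted p = 0.0526) or 2 (-0.31, adjusted p = 0.0818). Mdm4, the relative of Mdm2 that binds and inhibits p53, was at 89.9 to 107 CPM in Mock and 48.6 to 51.5 CPM in HT-DNA. Mdm4 was lower with HT-DNA (-0.998, adjusted p = 0.000773), and -0.5 after the correction for length and GC content (adjusted p = 0.00195). In HT-DNA+AOA, Mdm4 stood at 92.8, 53.7 and 40.7 CPM, with replicate 1 the highest and replicate 3 the lowest as for Mdm2, and its rise in HT-DNA+AOA+Asp relative to that group (0.525, adjusted p = 0.0383) was 0.93 without HT-DNA+AOA replicate 1 and was lost without replicate 2 (0.43, adjusted p = 0.129) or 3 (0.298, adjusted p = 0.211). Relative to HT-DNA, HT-DNA+AOA+Asp had higher Mdm4 (0.83, adjusted p = 0.00313), and 0.32 after the correction.

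Of the p53 and its regulators list of 16 genes, 13 passed the filter (Cdkn2a, Trp63 and Trp73 did not). With AOA relative to Mock, 3 were higher (22.5% of all genes tested were higher) and 5 lower (23.2%), the largest difference being that of Chek2, a checkpoint kinase that phosphorylates p53, at -1.09 (adjusted p = 3.03e-07). In AOA+Asp relative to AOA, 6 were higher (23.4%) and 2 lower (22.8%), with Atm, the kinase at the head of the double-strand break response, at 1.02 (adjusted p = 4.13e-05) and Chek2 at 0.86 (adjusted p = 6.78e-06). In AOA+Asp relative to Mock, 0 were called by edgeR, with 3 higher and 1 lower at an unadjusted p below 0.05 and 1 higher by DESeq2. With HT-DNA, 3 were higher (24.2%) and 4 lower (24%), against 7 and 3 after the correction for length and GC content. HT-DNA+AOA relative to HT-DNA had 2 higher (22.8%) and 4 lower (22.7%), Chek2 again the largest (-0.655, adjusted p = 0.000139), and adding aspartate to that group had 7 higher (23.7%) and 0 lower (23.9% of all genes, and of this list 2 lower at an unadjusted p below 0.05 and 2 by DESeq2), led by Trp53bp1 (0.98, adjusted p = 2.71e-05), a protein that binds chromatin at breaks. HT-DNA+AOA+Asp relative to HT-DNA had 6 higher (23.2%) and 2 lower (23.5%). The interaction term of AOA with HT-DNA was positive for 1 (7.23%) and negative for 2 (8.26%) of the p53 and its regulators list, and for 2 and 0 with library totals and 5 and 2 without HT-DNA+AOA replicate 3, while that of aspartate was called for 0 by edgeR or DESeq2, also 0 at an unadjusted p below 0.05. Without HT-DNA+AOA replicate 3, HT-DNA+AOA relative to HT-DNA had 5 higher and 5 lower of this list. Over all genes, that comparison then had 7454 calls, 3754 of them higher, beside 6480 and 3248 in the fit reported. The AOA terms called over all genes went from 2209 to 5422 without that library.

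Of a list of 24 other p53 targets, 22 passed the filter (Pmaip1 and Perp did not). With AOA relative to Mock, 8 were higher (22.5% of all genes tested) and 5 lower (23.2%) with a median of 0.062, against 5 and 7 with a median of -0.069 for the other p53 targets under library totals. Gadd45a, a stress gene that p53 and the amino acid response both induce, was the largest at 7.69-fold (2.94, SE 0.0739, adjusted p = 1.23e-15), while Pidd1 (-1.36, adjusted p = 1.59e-06) and Apaf1 (-1.16, adjusted p = 2.89e-07), which build caspase-activating complexes, were lower. Gadd45a stood at 21.7 to 25.9 CPM in Mock, 176 to 180 in AOA, 46.3 to 47.6 in AOA+Asp, 14.2 to 15.1 in HT-DNA, 204 to 223 in HT-DNA+AOA and 50 to 54.2 in HT-DNA+AOA+Asp. None of the 6 groups overlapped with another for Gadd45a, and AOA+Asp and HT-DNA+AOA+Asp lay closest to each other. In AOA+Asp relative to AOA, 7 were higher (23.4%) and 10 lower (22.8%), the largest being Gadd45a (-1.91), Ddit4 (-1.29, adjusted p = 4.37e-08), an inhibitor of mTORC1, and Gdf15 (-1.22, adjusted p = 4.67e-08), a stress-induced cytokine. Relative to Mock, AOA+Asp had 1 higher (Gadd45a, 1.03) and 5 lower, beside 2.52% and 3.95% of all genes, among them the antiproliferative gene Btg2 (-0.66, adjusted p = 0.0127).

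With HT-DNA, 5 of the other p53 targets were higher (24.2% of all genes tested) and 7 lower (24%), and with HT-DNA+AOA relative to HT-DNA 9 were higher (22.8%) and 6 lower (22.7%). Gadd45a was 14.7-fold higher there (3.88, adjusted p = 3.69e-17), Rrm2b, a subunit of ribonucleotide reductase that supplies deoxynucleotides, 2.8-fold higher (1.485, adjusted p = 8.12e-07), and Gdf15 2.69-fold higher (1.43, adjusted p = 2.04e-09). Adding aspartate to that group had 7 higher (23.7%) and 9 lower (23.9%), led by Gadd45a (-2.07), Btg2 (-1.69, adjusted p = 5.57e-08) and Gdf15 (-1.25, adjusted p = 1.53e-08). HT-DNA+AOA+Asp relative to HT-DNA had 6 higher (23.2%) and 8 lower (23.5%), against 8 and 4 with library totals. The interaction term of AOA with HT-DNA was positive for 6 (7.23%) and negative for 2 (8.26%) of the other p53 targets, with Gadd45a at 0.94 (adjusted p = 1.7e-05) and Gdf15 at 0.797 (adjusted p = 0.0017), and the counts were 3 and 0 without HT-DNA+AOA replicate 1, 5 and 0 without replicate 2 and 8 and 5 without replicate 3. Over all genes, 1601, 1401 and 5422 AOA terms were called without replicates 1, 2 and 3, beside 2209 in the fit reported. The term of aspartate was negative for 1 of the other p53 targets, Pml (-0.906, adjusted p = 0.000157), which interferon also induces.

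The mitotic genes repressed through p21 and DREAM, a complex that silences cell cycle genes, were all tested, 14 of 14. With AOA relative to Mock, 1 was higher (22.5% of all genes tested) and 5 lower (23.2%), and in AOA+Asp relative to AOA 5 were higher (23.4%) and 2 lower (22.8%), while 0 of 14 were called in AOA+Asp relative to Mock by edgeR or DESeq2, with 1 higher and 2 lower at an unadjusted p below 0.05. HT-DNA had 7 higher (24.2%) and 2 lower (24%), led by Mybl2 (0.796, adjusted p = 3.51e-07). HT-DNA+AOA relative to HT-DNA had 7 lower (11 after the correction for length and GC content) and 0 higher, beside 22.7% and 22.8% of all genes, also 0 at an unadjusted p below 0.05 and 0 by DESeq2, with Plk1, the kinase that drives entry into mitosis, 2.67-fold lower (-1.42, SE 0.08, adjusted p = 9.54e-11). Adding aspartate had 4 higher (23.7%) and 1 lower (23.9%), with Plk1 at 0.63 (adjusted p = 3.98e-06), and HT-DNA+AOA+Asp relative to HT-DNA had 1 higher (23.2%) and 7 lower (23.5%). The interaction term of AOA with HT-DNA was negative for 6 (8.26%) and positive for 0 (7.23% of all genes, and of this list 0 at an unadjusted p below 0.05, 0 by DESeq2). Plk1 was again the largest at -0.84 (adjusted p = 0.000111). Without HT-DNA+AOA replicate 3, the term was negative for 7 and positive for 3 of the list. Over all genes, 5422 terms were then called, 2557 of them positive. The term of aspartate was called for 0 of 14 by edgeR or DESeq2, with 1 positive and 1 negative at an unadjusted p below 0.05. For Plk1, the libraries of HT-DNA+AOA lay at 66.4 to 84 CPM and those of HT-DNA at 189 to 211 CPM, without overlap, in the groups where Cdkn1a was 79 to 95.8 and 69.3 to 77.4 CPM. With AOA relative to Mock, by contrast, both were lower, Plk1 at -0.575 (edgeR adjusted p = 1.01e-05) and Cdkn1a at -0.38. In HT-DNA+AOA+Asp relative to HT-DNA, where 7 of the 14 mitotic genes were lower, Cdkn1a was lower too (-0.61). Whether these levels are linked was not tested.

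**Figure D5:**
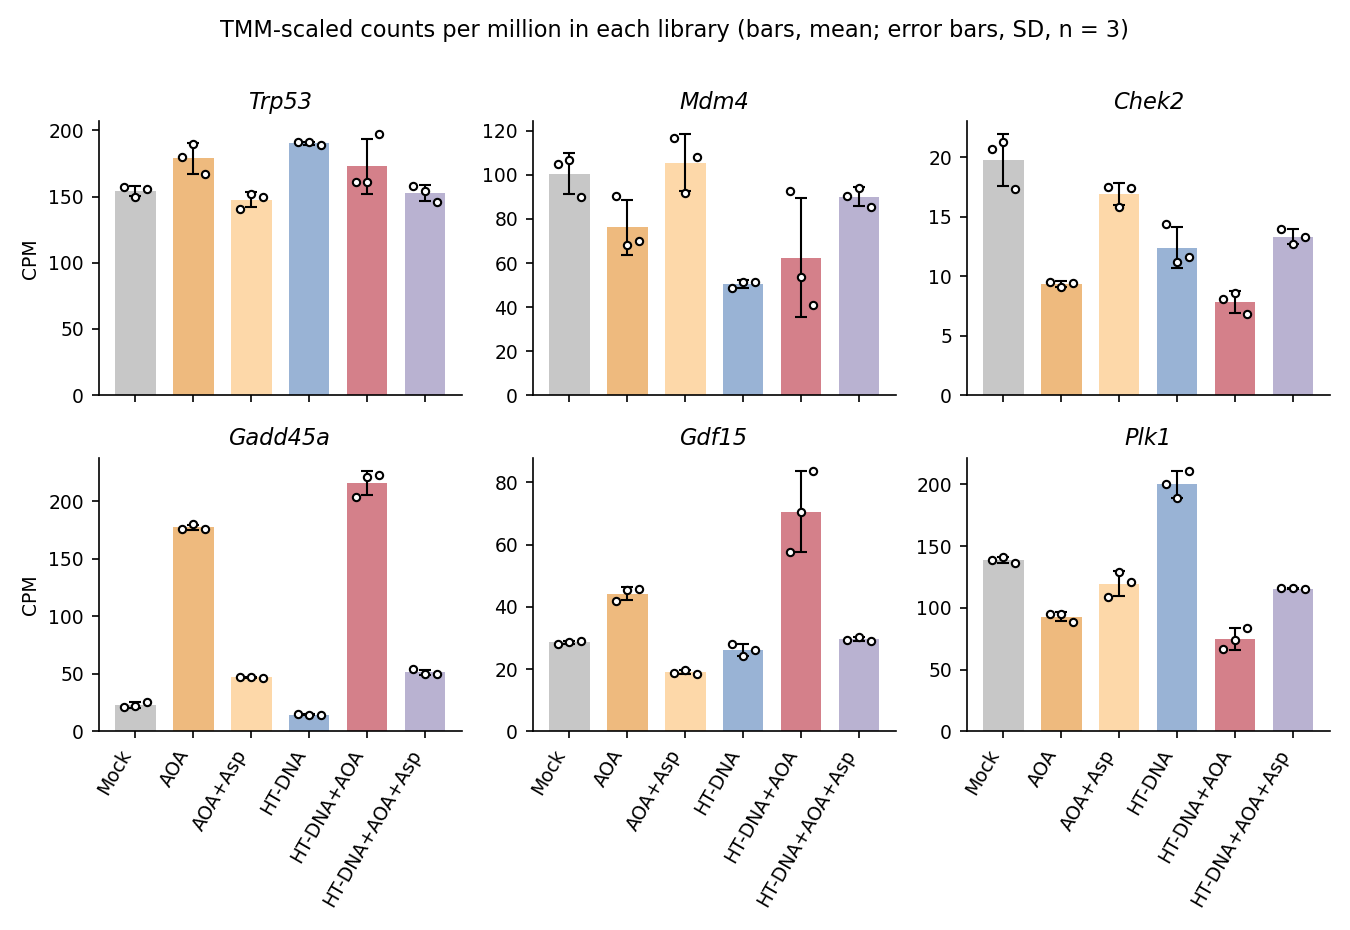
Level in CPM (linear axes from 0, scaled per gene) of Trp53, Mdm4, Chek2, Gadd45a, Gdf15 and Plk1, with bars for the mean of 3 cultures, the SD as error bar and a point per library. Gadd45a rises from 21.7 to 25.9 CPM in Mock to 204 to 223 CPM in HT-DNA+AOA, and Plk1 is lowest in that group.

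Bbc3 belongs to the Bcl-2 family, of which 8 of 10 other members passed the filter (Bik and Hrk did not). With AOA relative to Mock, 1 was higher (22.5% of all genes tested) and 3 lower (23.2%), with the survival factors Mcl1 at -0.61 (adjusted p = 3.62e-08) and Bcl2l1 at -0.498 (adjusted p = 1.78e-05). The log2 fold changes of the 8 genes ran from -0.986 to 0.264, so neither of these 2 had the largest fall. Bcl2l11, which encodes the BH3-only protein BIM, shared the fall of Bbc3 where aspartate was added, at -0.71 without HT-DNA (adjusted p = 1.46e-05) and -0.92 with it (adjusted p = 7.23e-07), the only family member lower in either comparison, with 1 and 0 higher, and for the latter 0 at an unadjusted p below 0.05 and 0 by DESeq2. Of all genes tested, 22.8% and 23.9% were lower in these comparisons and 23.4% and 23.7% higher. In AOA+Asp relative to Mock, 4 were lower (3.95%) and 0 higher (2.52%), also 0 unadjusted and 0 by DESeq2. HT-DNA had 4 higher (24.2%) and 2 lower (24%), led by Bak1 (0.63, adjusted p = 6.44e-06), HT-DNA+AOA relative to HT-DNA had 1 higher (22.8%) and 5 lower (22.7%), and HT-DNA+AOA+Asp relative to HT-DNA had 6 lower (23.5%) and 0 higher (23.2%), with 1 higher at an unadjusted p below 0.05 and 0 by DESeq2. The interaction term of AOA was negative for Bak1 alone (-0.507, adjusted p = 0.00516), and that of aspartate was called for 0 by edgeR, with 1 negative at an unadjusted p below 0.05 and 1 by DESeq2.

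Relatives of the members were a list of 11 genes, of which 8 passed the filter (Phlda2, Edar and Tnfrsf19 did not). Ccng2, the relative of Ccng1, was lower with AOA (-0.79, adjusted p = 1.48e-05) and with HT-DNA (-0.98, adjusted p = 4.46e-06), and higher where aspartate was added, at 0.96 without HT-DNA (adjusted p = 1.83e-06) and 1.68 with it (adjusted p = 6.34e-09). Phlda1, the relative of Phlda3, was lower where aspartate was added (-0.78, adjusted p = 1.15e-06, and -1.21 with HT-DNA, adjusted p = 3.03e-09). In the order of the comparisons above, the list had 1 higher and 3 lower with AOA, 3 and 2 with aspartate added, 0 and 4 in AOA+Asp relative to Mock, 1 and 4 with HT-DNA, 2 and 4 with HT-DNA+AOA relative to HT-DNA, 5 and 3 with aspartate added to it, and 3 and 3 relative to HT-DNA. Of all genes tested, 22.5% to 24.2% were higher and 22.7% to 24% lower in each of these comparisons other than AOA+Asp relative to Mock, where 2.52% were higher and 3.95% lower. The interaction terms were called for 2 (AOA) and 1 (aspartate) of the relatives of the members, all positive by edgeR, beside 7.23% and 0.266% of all genes. Where 0 were called by edgeR, 1 was higher in AOA+Asp relative to Mock at an unadjusted p below 0.05 and 1 by DESeq2, 1 AOA term was negative unadjusted and 0 by DESeq2, and 2 aspartate terms were negative unadjusted and 2 by DESeq2.

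As a description, the genes whose log2 CPM followed Cdkn1a most closely over the 18 libraries, among 12131 genes, were Maff (Pearson's r = 0.918), Phlda1 (0.918) and Bcl10 (0.894). Those most like Mdm2 were Heatr5a (0.968), C2cd5 (0.965) and Gxylt1 (0.963). Among the 9 genes, over the 6 group means, Mdm2 went with Trp53inp1 (r = 0.99), Eda2r with Fas (0.978), Plk2 with Fas (0.893) and with Bbc3 (0.865), and Cdkn1a with Bbc3 (0.816), while Cdkn1a and Mdm2 stood at -0.429. The points share libraries, depth and the differences in transcript length and GC content described above, so these values carry no test.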

How the data were processed

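TRIzol extracts of L929 cells, from 6 groups of 3 independent cultures, were sequenced by Majorbio according to the study's methods. The authors deposited an estimated count of reads per gene (expected counts) without normalization. Of these values 11.6% were not whole numbers, and the group means deposited beside them matched the mean of the 3 libraries within 3.3e-05 and were not used. The aligner, counting program, genome build and strand of counting are not given in the sources used here. Groups came from the sample labels, and 0 columns belonged to other samples.

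Values were rounded before the fit, which takes whole counts. In R 4.3.3, edgeR 4.0.16 removed genes with low counts (filterByExpr, minimum count 10, minimum total 15), leaving 14263 genes, scaled the 18 libraries by TMM and fitted them in 1 robust quasi-likelihood model. The 7 comparisons and 2 interaction terms were adjusted by Benjamini-Hochberg over all genes tested and called at 0.05. Spread between replicates exceeded counting error in every group, so errors came from the model. Per-gene precision follows depth, 17901580 to 24057322 counts per library. The 9 genes and the lists beside them (other p53 targets, p53 and its regulators, mitotic genes repressed through p21 and DREAM, Bcl-2 family, relatives of the members, markers) were chosen with earlier results of these data known. Genes were named by a rule: the 9 genes, Trp53, Mdm4 and Cxcl10 always, and of each list at most the 3 called genes with the largest log2 fold change and at least 1 CPM in the higher group, plus the 3 genes most correlated with Cdkn1a and with Mdm2. Alternatives were DESeq2 1.42.0, RLE, library totals, other filters, the groups compared alone, a block for the replicate number, leaving out each library in turn and, added later, a loess correction for transcript length and GC content (GENCODE vM21, span 0.3, mean of at least 1 CPM, 97.5% of genes tested). The steps were tested on simulated data.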

Additional observations from a re-analysis of the deposited data

Results flagged for a closer look

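The AOA difference in Cdkn1a was not the same with and without HT-DNA, with an interaction term of 0.62 on the log2 scale (edgeR adjusted p = 0.00145), from -0.38 without to 0.24 with HT-DNA. The aspartate difference in Cdkn1a was also not the same with and without HT-DNA, with a term of -0.64 (adjusted p = 0.00495), from -0.205 without to -0.84 with HT-DNA. For Trp53inp1 the AOA term was 1.07 (adjusted p = 0.0245), from -1.08 to -0.015. For Eda2r the AOA term was 0.83 (adjusted p = 0.00632), from 0.81 to 1.64. For Plk2 the AOA term was 0.77 (adjusted p = 0.0108), from 1.08 to 1.84. All 5 terms rest in part on the HT-DNA+AOA libraries, which differ most from each other. The Cdkn1a, Eda2r and Plk2 terms were called without any 1 of the libraries, and the Trp53inp1 term was lost without 4 of them.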

How the results depend on the processing

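Of the recomputed log2 fold changes of the 9 genes, 1094 kept direction and side of the threshold, 47 lost the call, 41 gained one and 46 changed sign, none of the last past the threshold in the fit reported. Sign changes under other settings were, with library totals, Plk2 (-0.068) and Bbc3 (-0.05) for HT-DNA relative to Mock, Mdm2 for HT-DNA+AOA relative to HT-DNA (-0.017), and Ccng1 (0.001) and Plk2 (0.035) for HT-DNA+AOA+Asp relative to HT-DNA. With the correction for length and GC content, they were Bbc3 for HT-DNA relative to Mock (-0.383), Mdm2 for HT-DNA+AOA relative to HT-DNA (-0.125), the AOA term of Phlda3 (0.067) and the aspartate term of Fas (0.016). For HT-DNA+AOA relative to HT-DNA, Mdm2 was -0.003 without a filter and Trp53inp1 was 0.002 with DESeq2, 0.001 with RLE and 0.007 with at least 10 counts in every library, a filter that Fas did not pass.

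Leaving out 1 library, sign changes occurred within these ranges: Fas, AOA+Asp relative to Mock (-0.383 to 0.181); HT-DNA relative to Mock, Plk2 (-0.043 to 0.127) and Bbc3 (-0.158 to 0.199); HT-DNA+AOA relative to HT-DNA, Mdm2 (-0.184 to 0.184) and Trp53inp1 (-0.451 to 0.19); Phlda3, HT-DNA+AOA+Asp relative to HT-DNA+AOA (-0.054 to 0.246); Plk2, HT-DNA+AOA+Asp relative to HT-DNA (-0.101 to 0.061). For the aspartate term they were Mdm2 (-0.186 to 0.182), Trp53inp1 (-0.455 to 0.187), Plk2 (-0.134 to 0.152), Fas (-0.234 to 0.318) and Bbc3 (-0.043 to 0.268). The count of the 9 genes called ranged from 2 to 4 for HT-DNA relative to Mock, 3 to 5 for HT-DNA+AOA+Asp relative to HT-DNA and 3 to 7 for the AOA term, and stayed within 1.5 times for the others. The cause was not tested.

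Replicate numbers were not taken to pair the samples, by a rule that every same-numbered pair correlate over 0.1. Paired cultures could also fail this rule, so it cannot decide whether the cultures were paired. Deviations from the group means correlated at -0.188 to 0.421 over 45 same-numbered pairs, 13 of them over 0.1, beside 16 of 90 pairs of other numbers. Of 18 libraries, 9 correlated best with their own number. With the replicate number as a block, 8 genes were called for AOA relative to Mock, 8 for AOA+Asp relative to AOA and 5 for HT-DNA relative to Mock, and Mdm2 for HT-DNA+AOA relative to HT-DNA was -0.004. Over all genes, 923 calls for AOA+Asp relative to Mock became 2460 with only the groups compared, 1738 with the correction and 359 to 723 with a library left out. With only the groups compared, HT-DNA+AOA relative to HT-DNA had 4167 calls (6480 reported), HT-DNA+AOA+Asp relative to HT-DNA+AOA 4275 (6799) and the AOA term 1019 (2209), which ranged from 1147 to 5422 with a library left out. The 149 aspartate terms called became 322 with DESeq2, 303 without a filter, 66 with only the groups compared, 432 with the correction and 69 to 418 with a library left out. Depth limits Fas most, at 5 to 44 counts per library.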
